A study of Rattus norvegicus with 4 samples.

Results

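The genes described here protect liver cells against reactive oxygen and free metal ions. They are 2 metallothioneins (Mt1 and Mt2A) and 8 antioxidant enzymes (Sod1, Sod2, Cat, Gpx1, Prdx1, Gclc, Gclm and Txnrd1). They were taken by gene symbol from the deposited count table. All 10 symbols were found, and because Mt1 has 2 entries there were 11 rows of the 32545 in the table. Liver messenger RNA had been sequenced from rats kept in forced activity (2 libraries) and from rats under forced activity combined with sleep restriction (2 libraries). Forced activity is therefore common to both groups, and restricted sleep is what was added. Neither strain, sex, age, duration nor the source animal of a library is given in the sources used here. The replicates are numbered 1 and 2 in each group, and p-values measure only the spread between these libraries, which may be technical in part.

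Metallothioneins are small, cysteine-rich proteins that bind zinc, copper and cadmium, and their genes are switched on by zinc through the transcription factor Mtf1, by glucocorticoids and by inflammatory signals, with high inducibility in liver. Superoxide dismutases turn superoxide into hydrogen peroxide, which catalase, glutathione peroxidases and peroxiredoxins then remove. Glutathione and thioredoxin supply the electrons for the peroxidases, and many of the enzymes that make or recycle them are induced by the transcription factor Nrf2 through antioxidant response elements.

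RefSeq promoters of the rat build GRCr8, each covering 250 bases before and 50 after a transcription start, matched all 10 symbols with 11 windows, Txnrd1 having 2. The stretches upstream of Mt1 and Mt2A are shown because all metallothionein rows were higher in the replicate 1 than the replicate 2 libraries. Mt1 has a window on chromosome 19 only. Any part of these stretches in that split was not tested. Capitals mark the core of the metal response element, searched as TGCACNC and TGCGCNC on both strands. The Mt1 stretch is chr19:10832976-10833225 and the Mt2A stretch is chr19:10838709-10838958, both on the minus strand and printed 5′ to 3′ towards the gene.

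Mt1: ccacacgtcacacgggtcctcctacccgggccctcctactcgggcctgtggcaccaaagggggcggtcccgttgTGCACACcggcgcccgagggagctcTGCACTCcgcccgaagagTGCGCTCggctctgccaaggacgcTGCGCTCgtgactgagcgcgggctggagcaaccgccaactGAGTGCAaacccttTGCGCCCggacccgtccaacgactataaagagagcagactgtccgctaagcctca
Mt2A: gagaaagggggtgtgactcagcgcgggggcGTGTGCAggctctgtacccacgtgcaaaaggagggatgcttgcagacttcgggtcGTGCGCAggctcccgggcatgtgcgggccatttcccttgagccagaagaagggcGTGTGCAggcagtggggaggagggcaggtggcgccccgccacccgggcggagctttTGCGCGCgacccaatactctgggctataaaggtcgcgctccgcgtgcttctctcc

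The Mt1 window held 6 metal response cores, 5 in the reading direction and 1 on the opposite strand. The Mt2A window held 4, of which 1 was in the reading direction and 3 were on the opposite strand. Of 33469 RefSeq promoter windows of this length, 24.2% held at least 1 such core, 0.439% held at least 4 and 0.0388% held at least 6. Among the enzymes only Gclm had any, with 2. The core of the antioxidant response element, searched as TGACNNNGC on both strands, was found in 6 of the 11 windows, those of Mt1, Mt2A, Sod2, Prdx1 and Gclm and 1 of the Txnrd1 windows, against 12.1% of all windows. It did not overlap a metal response core in any of them. The occurrences in Prdx1, Gclm and Txnrd1 are shown in capitals with 10 bases on either side, because these enzymes are textbook Nrf2 targets. All 3 read on the strand opposite to the gene, and the stretches are printed in the gene's direction. They are chr5:135383761-135383789 and chr2:213031953-213031981 on the plus strand and chr7:22755964-22755992 on the minus strand. Such a match describes letters and does not show that a factor binds there.

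Prdx1: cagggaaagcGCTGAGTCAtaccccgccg
Gclm: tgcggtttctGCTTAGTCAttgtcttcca
Txnrd1: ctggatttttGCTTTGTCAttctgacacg

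The tabulated counts of the 4 libraries summed to between 508202.6 and 520275.6. The column of sleep restriction 2 held whole numbers in all but 1 row, whereas the others held many decimal values, and the replicate 1 libraries had 14008 and 14105 genes above 0 against 11943 and 10952 in the replicate 2 libraries. Replicate number thus coincides with the number of genes above 0, and values are given within each number as well as pooled. Decimal values under 1 counted as above 0, so in this number sleep restriction 2 is not strictly comparable with the others. Counts were scaled to counts per 1e6 (CPM), and each change is given as the log2 ratio of sleep restriction to forced activity, with a prior count of 2, from the quasi-likelihood test of edgeR with Benjamini-Hochberg adjustment over 4986 tested genes. Hepatocyte markers summed to between 213288 and 224590 CPM, with Alb (albumin) at a log2 change of 0.09 (SE 0.17), while bile duct markers stayed between 24.4 and 36.02 CPM. In bulk tissue, fewer cells of a type and less RNA per cell cannot be told apart.

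No metallothionein or antioxidant enzyme differed past the threshold between sleep restriction and forced activity. All 11 rows passed the gene filter, 0 were called at an adjusted p under 0.05, and 0 had an unadjusted p under 0.05. Across all tested genes edgeR called 1, or 0.0201%, and 210, or 4.21%, had an unadjusted p under 0.05. DESeq2 and limma-voom also called 0 of the 11 rows. The log2 changes ran from -0.30 to 0.26 with a median of 0.07, beside a median of 0.00 over all tested genes, and 7 were positive and 4 negative. The smallest unadjusted p in edgeR was 0.169, for Gpx1, and every row had an adjusted p of 0.999. What set the rows apart was their spread between libraries, which was wide for the metallothioneins and narrow for most enzymes. The median range over the 4 libraries was 2.08 on the log2 scale for the 3 metallothionein rows and 0.36 for the 8 enzyme rows, beside 0.54 for all tested genes. The ranges of Cat, Gclc and Gclm were not narrow, exceeding those of 50.8%, 66.2% and 47.1% of tested genes. These comparisons were not matched for count level, and genes with few counts vary more by counting alone.

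**Figure D1:**
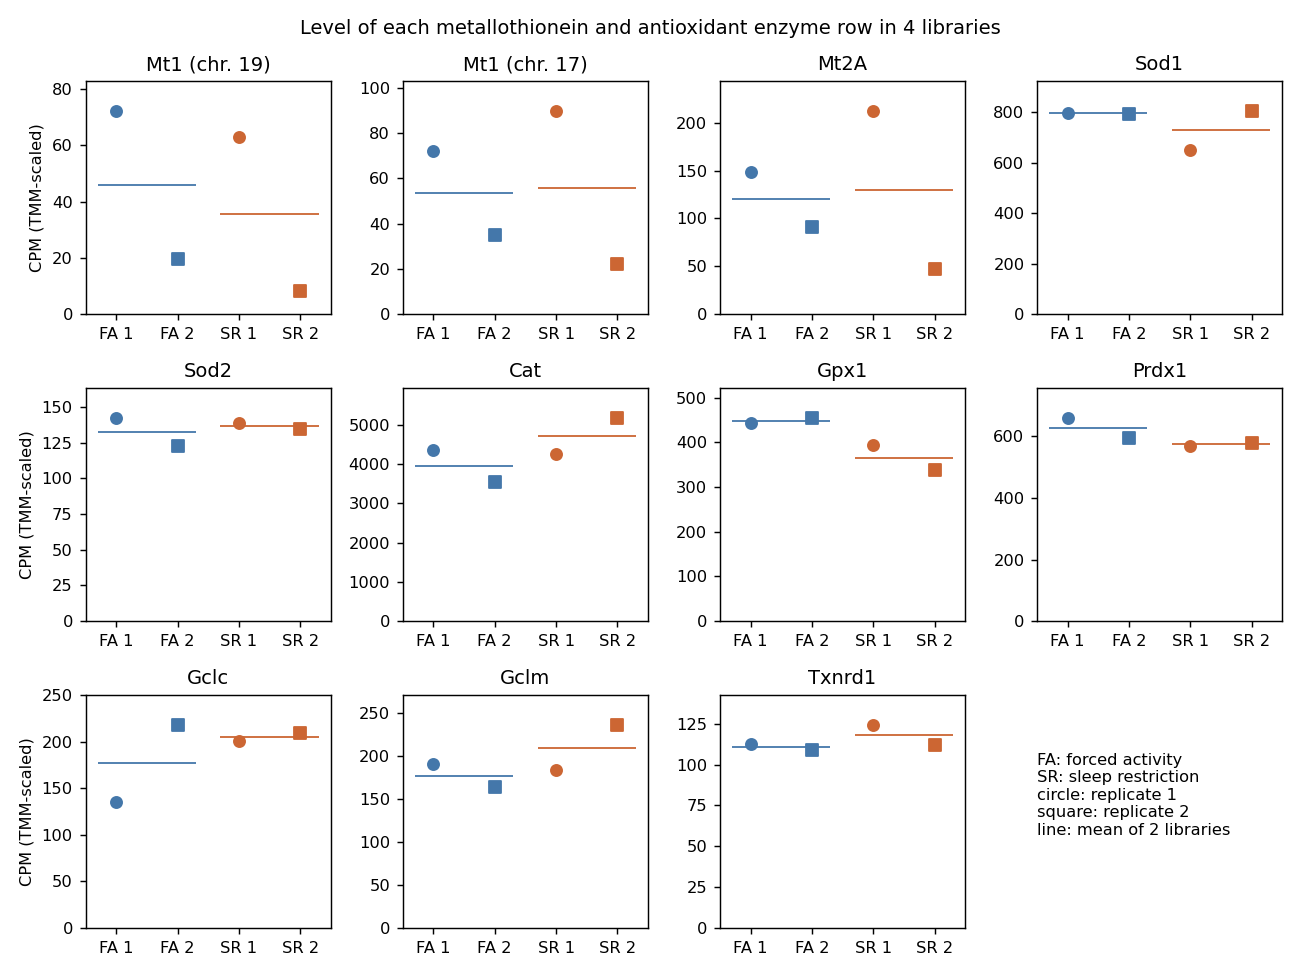
TMM-scaled CPM (vertical axes, starting at 0) of each of the 11 rows in the 2 forced activity (FA, blue) and 2 sleep restriction (SR, orange) libraries, with circles for replicate 1, squares for replicate 2 and lines for group means. In the metallothionein panels both circles lie above both squares, whereas the Sod1, Sod2, Prdx1 and Txnrd1 values lie close together.

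Mt2A, one of the 2 main metallothionein isoform genes of liver, is listed as ENSRNOG00000043098.1 on chromosome 19 from 11307967 to 11308740 in rn6. Its counts were 69.8 and 47.1 in forced activity 1 and 2, which served as controls, against 103.8 and 23 in sleep restriction 1 and 2. The sleep restriction libraries thus held both the highest and the lowest value, and the groups overlapped. The mean level was 120 ± 40.2 CPM in the controls against 129 ± 117 CPM under sleep restriction (SD, 2 libraries each). The log2 change was 0.11 (SE 0.66), with a 95% interval from -1.58 to 1.80, so a fall to 0.334-fold and a rise to 3.49-fold both lie inside it. Within the replicate 1 libraries the difference was 0.50 on the log2 scale and within the replicate 2 libraries it was -0.91. The pooled value was -1.29 without sleep restriction 1 and 0.80 without sleep restriction 2.

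The Mt1 entry beside Mt2A on chromosome 19, from 11302125 to 11302938 (ENSRNOG00000025764.5), encodes the other main isoform. Its counts were 34.5 and 9.6 in the controls against 30.9 and 4 under sleep restriction. Both replicate 1 libraries were high and both replicate 2 libraries low, and the 2 groups overlapped. The 4 counts of sleep restriction 2 carry an exact 95% Poisson interval of 1.09 to 10.2, which covers counting error only. Mean levels were 45.8 ± 37.2 CPM in the controls against 35.6 ± 38.9 CPM under sleep restriction, with a log2 change of -0.30 (SE 0.86, 95% interval -2.49 to 1.89). The differences within replicate numbers 1 and 2 were -0.18 and -0.95. The passing of this row through the gene filter rested on the replicate 1 libraries, since neither replicate 2 library had more than 10 counts.

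A second Mt1 entry (ENSRNOG00000038047.3) lies on chromosome 17 from 78793336 to 78793724 and spans 389 bases, against 814 bases for the entry on chromosome 19. RefSeq's GRCr8 table holds 1 gene of this symbol, on chromosome 19. Counts on the chromosome 17 entry were 34.2 and 18.3 in the controls against 44.3 and 11 under sleep restriction, in the same order of libraries as for Mt2A. The log2 change was 0.07 (SE 0.56, 95% interval -1.24 to 1.39), and it was 0.30 within replicate number 1 and -0.56 within number 2. Metallothionein genes are a family of related copies, and since the entries were not compared by sequence here, how reads were divided between the 3 of them is uncertain. The ratio of the chromosome 17 entry to Mt2A ranged from 0.383 to 0.486 over the libraries, while that of the chromosome 19 Mt1 entry to Mt2A ranged from 0.174 to 0.486. Of other metallothionein entries, Mt1m, which RefSeq lists as a pseudogene, had 2.1 and 1.4 counts in the controls against 4.6 and 2 under sleep restriction, and Mt3 and Mt4 were listed at 0 in every library.

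Summed over the 3 entries, metallothionein RNA measured 292 and 146 CPM in the controls against 364 and 77.3 CPM in sleep restriction 1 and 2. Group means were 219 ± 104 CPM and 221 ± 203 CPM (SD, 2 libraries each), so the difference between the groups was far smaller than the spread within either. The replicate 1 library was 2.002-fold above replicate 2 under forced activity and 4.71-fold above it under sleep restriction. Sleep restriction over forced activity was 1.25-fold within replicate number 1 and 0.529-fold within number 2. These opposite directions have 1 library on each side and were not tested.

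In all 3 metallothionein rows both replicate 1 libraries lay above both replicate 2 libraries, as they did in 21.4% of tested genes. The ratio of the highest to the lowest library was 8.85 for Mt1 on chromosome 19, 4.52 for Mt2A and 4.001 for Mt1 on chromosome 17. On the log2 scale these ranges exceeded those of 99.8%, 99.3% and 98.8% of tested genes, although genes with few counts vary more by counting alone. Mt1 on chromosome 19 passed the gene filter through the replicate 1 libraries, where it was high. Its range and its split between replicate numbers are therefore not independent of the filter. For Mt2A replicate 1 over replicate 2 was 0.67 under forced activity and 2.08 under sleep restriction on the log2 scale. The part of sampling depth in this split was not tested.

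**Figure D2:**
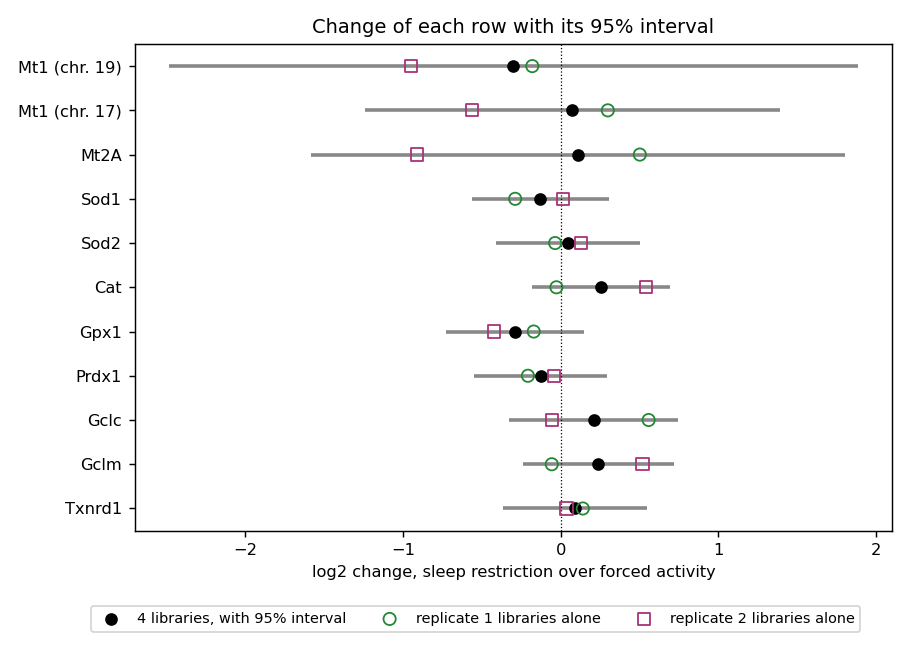
Log2 change of sleep restriction over forced activity (horizontal axis) for each of the 11 rows, with black points and grey bars for the 4-library estimate and its 95% interval, and open symbols for the difference within replicate 1 (circles) or replicate 2 (squares) libraries. Every interval crosses 0, and the metallothionein bars are the widest, reaching from -2.49 to 1.89 for Mt1 on chromosome 19.

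By Euclidean distance of centred log2 CPM over the 4 libraries, the tested gene nearest to Mt2A was Mt1 on chromosome 17, at 0.28, and Mt2A was in turn the nearest gene to that entry. Eln (elastin) and Igfbp1, a secreted binding protein for insulin-like growth factors, followed for Mt2A at 0.34 and 0.48. Igfbp1 measured 50.9 and 44.8 CPM in the controls against 104 and 24.4 CPM under sleep restriction. Timp2, an inhibitor of matrix proteases, and Rchy1, a ubiquitin ligase, followed for the chromosome 17 entry at 0.29 and 0.32. Nearest to Mt1 on chromosome 19 were Adamtsl2 at 0.17, Irs2, an adaptor of the insulin receptor, at 0.56, and Ezr (ezrin) at 0.59. Mt2A came only at rank 9 among the genes nearest to this Mt1 entry, at 0.85. In turn, this entry came at rank 67 among those nearest to Mt2A. Irs2 measured 33.9 and 11.7 CPM in the controls against 24.4 and 4.07 CPM under sleep restriction. With 4 points per gene such closeness is a description of these libraries only.

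**Figure D3:**
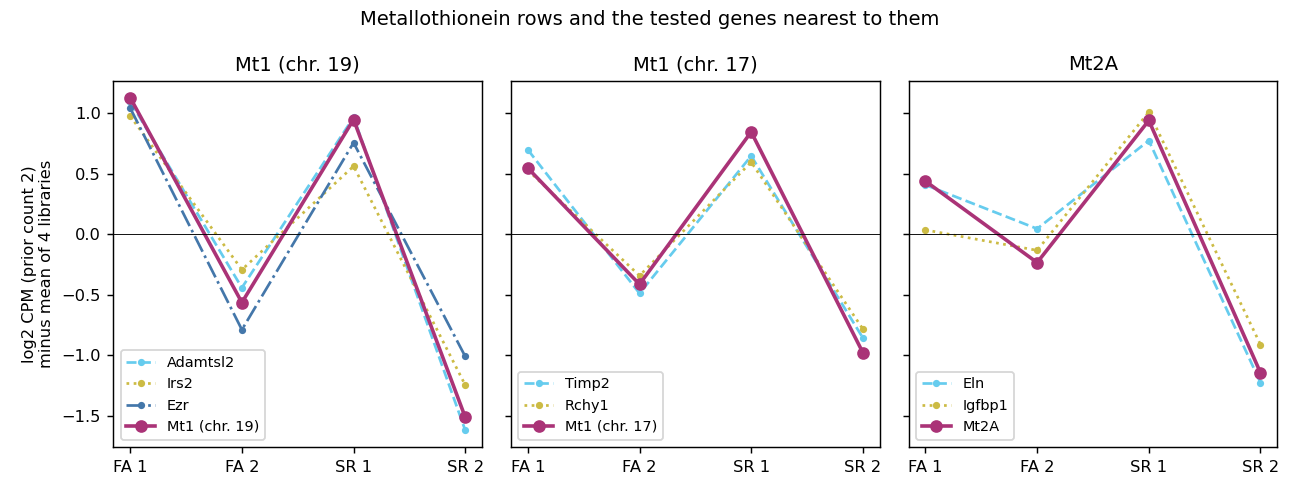
Log2 CPM with a prior count of 2, minus its mean over the 4 libraries (vertical axis), for each metallothionein row (thick line) and the tested genes other than metallothioneins among its 3 nearest (thin lines). Libraries are forced activity (FA) and sleep restriction (SR) 1 and 2, and all lines are high in the SR 1 library and lowest in the SR 2 library.

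The superoxide dismutases were close to level across libraries. Sod1, the copper- and zinc-containing enzyme of the cytosol (ENSRNOG00000002115.6, chromosome 11 from 30363280 to 30368862), had 376.1 and 406.9 counts in the controls against 320.0 and 394 under sleep restriction. Only sleep restriction 1 stood below the other 3. The level was 795 ± 2.95 CPM in the controls against 727 ± 106 CPM under sleep restriction, giving a log2 change of -0.13 (SE 0.20, 95% interval -0.56 to 0.31). Sod2, the manganese enzyme of mitochondria (ENSRNOG00000019048.4, chromosome 1 from 47914759 to 47921587), had 67 and 63.2 counts, then 67.5 and 66. Its highest library was 1.16-fold above its lowest, and its log2 change of 0.04 (SE 0.21) had a 95% interval from -0.41 to 0.50.

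Catalase (Cat), the peroxisomal enzyme that splits hydrogen peroxide without a cosubstrate (ENSRNOG00000008364.6, chromosome 3 from 93379874 to 93412058), measured 4353 and 3558 CPM in the controls against 4270 and 5173 CPM in sleep restriction 1 and 2. The highest value came from sleep restriction 2 and the other sleep restriction library lay between the controls. The log2 change was 0.26 (SE 0.20, 95% interval -0.18 to 0.69), which was -0.03 within replicate number 1 and 0.54 within number 2.

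Gpx1 and Prdx1 were the only 2 of the 11 rows whose groups did not overlap, and both were lower under sleep restriction. Among all tested genes 15.5% were lower without overlap and 17.3% were higher without overlap. The 2 of 11 rows that were lower are a share near the 15.5%, and 0 of 11 rows were higher. Gpx1, the selenium-dependent glutathione peroxidase of cytosol and mitochondria (ENSRNOG00000048812.2, chromosome 8 from 117117430 to 117118522), had 208.8 and 233 counts in the controls against 192.8 and 166 under sleep restriction. It went from 448 ± 7.68 to 365 ± 38.9 CPM, a log2 change of -0.29 (SE 0.20, 95% interval -0.73 to 0.14), and was -0.17 within replicate number 1 and -0.42 within number 2. Prdx1, a thioredoxin-dependent peroxidase of the cytosol (ENSRNOG00000017194.5, chromosome 5 from 135536413 to 135551990), had 310.6 and 305.8 counts, then 280.5 and 284. Its log2 change was -0.13 (SE 0.19, 95% interval -0.55 to 0.30). For both, the difference was within what the test attributes to spread between libraries.

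Gclc and Gclm encode the catalytic and the modifier subunit of glutamate-cysteine ligase, the rate-limiting enzyme of glutathione synthesis. Gclc (ENSRNOG00000006302.4, chromosome 8 from 85059051 to 85097468) had 64.2 and 111.8 counts in the controls against 99.3 and 103 under sleep restriction. Forced activity 1 alone was low, and the other 3 libraries lay between 202 and 218 CPM. The log2 change of 0.21 (SE 0.24, 95% interval -0.33 to 0.74) was 0.56 within replicate number 1 and -0.06 within number 2. Without forced activity 1 it was -0.08. Gclm (ENSRNOG00000013409.4, chromosome 2 from 225827504 to 225847874) had 90.5 and 83.6 counts, then 89.8 and 116, and here sleep restriction 2 alone was high. Its log2 change of 0.24 (SE 0.22, 95% interval -0.24 to 0.72) was -0.06 within number 1 and 0.52 within number 2. The positive changes of the 2 subunits thus turned on different libraries, and the ratio of Gclc to Gclm CPM was 0.711 and 1.33 in the controls against 1.10 and 0.888 under sleep restriction.

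Forced activity 1, the low library for Gclc, also had the lowest summed endothelial and macrophage markers. The 14 listed endothelial entries summed to 318 and 849 CPM in the controls against 824 and 472 CPM under sleep restriction, and the 13 macrophage entries to 718 and 950, then 1132 and 794 CPM, with Timd4 listed at 0. The nearest patterns to Gclc were those of Slain2, the macrophage gene Cd5l and Dpp7, at distances of 0.07, 0.07 and 0.08, and Cd5l measured 63.6 and 105 CPM, then 102 and 99.7 CPM. The part of these cells in the Gclc values was not tested. Red cells are rich in catalase and peroxidases, and their 8 listed entries summed to 932 and 1940 CPM in the controls against 1246 and 761 CPM under sleep restriction, with Hba1 the highest at 447 and 874, then 602 and 326 CPM. The red cell sum was lowest in sleep restriction 2, where Cat was highest. The part of red cells in the Cat values was not tested. Stellate cell entries ranged from 570 to 753 CPM, with Col1a2 listed at 0. Eng at 84.8 and 125, then 142 and 63.1 CPM, Clec4f at 144 and 222, then 216 and 201 CPM, and Col3a1 at 483 and 401, then 549 and 381 CPM were the highest endothelial, macrophage and stellate entries.

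Txnrd1, the selenium-containing reductase that recycles cytosolic thioredoxin (ENSRNOG00000009088.7, chromosome 7 from 26946125 to 26984400), varied least of the 11 rows. It had 52.6 and 55.9 counts in the controls against 61.4 and 55 under sleep restriction, with a highest-to-lowest ratio of 1.14 in CPM. Its log2 change was 0.09 (SE 0.21, 95% interval -0.37 to 0.55), and it was 0.14 and 0.04 within replicate numbers 1 and 2. It was the only row that was higher under sleep restriction within both numbers, whereas Mt1 on chromosome 19, Gpx1 and Prdx1 were lower within both. The remaining 7 of 11 rows had opposite signs, beside 43.7% of all tested genes. Of the 4986 tested genes, 1443 were higher within both numbers and 1366 were lower within both.

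**Figure D4:**
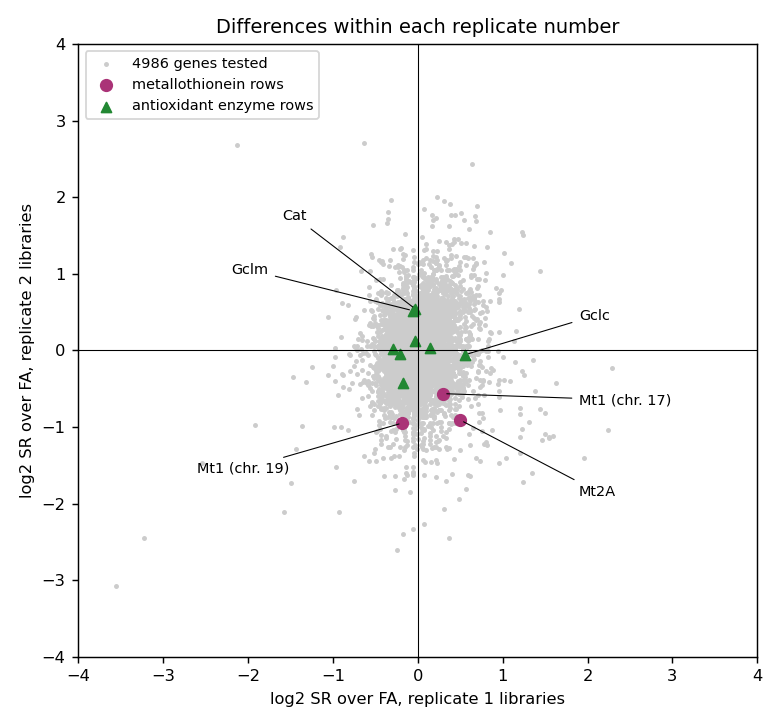
Log2 difference of sleep restriction (SR) over forced activity (FA) in the replicate 1 libraries (horizontal axis) against that in the replicate 2 libraries (vertical axis), for 4986 tested genes (grey), 3 metallothionein rows (purple circles) and 8 enzyme rows (green triangles). Mt2A and Mt1 on chromosome 17 lie right of and below the origin, Cat and Gclm lie above it, and Gclc lies to its right.

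Over all 4986 tested genes, 2616 log2 changes were positive and 2370 negative. Of 15 further enzymes against superoxide and peroxide, 11 were tested and 0 were called. Their log2 changes were positive in 2 and negative in 9, with a median of -0.11 (-0.22 to 0.02 with 1 library left out). The 3 entries with the most counts, a ranking not corrected for length, were Prdx6, a peroxiredoxin acting on lipid peroxides, with a log2 change of -0.11 (SE 0.20), Prdx5, a peroxiredoxin of mitochondria and peroxisomes, with -0.20 (SE 0.21), and Gpx4, which reduces lipid hydroperoxides in membranes, with -0.12 (SE 0.21). Srxn1, the sulfiredoxin that repairs overoxidised peroxiredoxins and a sensitive Nrf2 target, had at most 1.4 counts in any library. In the glutathione and thioredoxin list 14 of 20 entries were tested and 0 called, with 5 positive, 9 negative and a median of -0.13. Gsr, which regenerates glutathione, had a log2 change of 0.05 (SE 0.22) and Gss, the second enzyme of its synthesis, had -0.25 (SE 0.26). The mitochondrial thioredoxin Txn2 had -0.06 (SE 0.20), and Txnip, which binds and inhibits thioredoxin, had -0.23 (SE 0.23).

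Among regulators and further targets of Nrf2, 14 of 19 entries were tested and 0 called, with 6 positive and 8 negative and a median of -0.04 (-0.17 to 0.04 with 1 library left out). Nfe2l2, which encodes Nrf2 itself, had 35.9 and 45 counts in the controls against 41.7 and 82 under sleep restriction. Sleep restriction 2 alone was high, and the log2 change of 0.60 (SE 0.30) had an unadjusted p of 0.0726 and an adjusted p of 0.999 in edgeR. Keap1, the adaptor that marks Nrf2 for degradation, had a log2 change of -0.15 (SE 0.26). Hmox1, the inducible haem oxygenase, had 14.8 and 20.4 counts, then 27.4 and 10, and Nqo1, a quinone reductase, had 5.3 and 3.4, then 3.6 and 6. The 3 most counted targets were the ferritin chains Fth1 and Ftl1, with log2 changes of -0.14 (SE 0.19) and -0.30 (SE 0.19), and the epoxide hydrolase Ephx1, with -0.20 (SE 0.23). In sleep restriction 2, where Nfe2l2 was highest, Gclm and Nqo1 were highest too, whereas Fth1, Ftl1 and Hmox1 were lowest. Gclc, Prdx1, Txnrd1 and Ephx1 were neither highest nor lowest there. The part of Nrf2 in these values was not tested.

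In the zinc and copper list 14 of 21 entries were tested and 0 called, with 5 positive and 9 negative and a median of -0.08 (-0.06 to 0.03 with 1 library left out). Slc30a1, the plasma membrane zinc exporter that, like the metallothioneins, is induced by zinc through Mtf1, had 19.2 and 10.1 counts in the controls against 26 and 28 under sleep restriction. Both sleep restriction libraries were above both controls, as in 17.3% of all tested genes. The log2 change was 0.82 (SE 0.31, unadjusted p = 0.0217, adjusted p = 0.999 in edgeR). In edgeR 2 of the 14 tested entries, Slc30a1 among them, had an unadjusted p under 0.05, beside 4.21% of all tested genes. This list, too, was chosen with earlier results of these data known, so its share is not independent of them. In sleep restriction 2, where the metallothioneins were lowest, Slc30a1 had its highest value, of 28 counts. The part of zinc or Mtf1 in these values was not tested. Mtf1 itself was listed at 0 in all libraries, which can be a failed count. The importer Slc39a14 had a log2 change of -0.09 (SE 0.20), Slc30a10, best known as a manganese exporter, had -0.10 (SE 0.21) and the copper importer Slc31a1 had 0.26 (SE 0.22).

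Gpx1 and Txnrd1 contain selenocysteine, which is inserted by a dedicated machinery. Of 19 entries for that machinery and other selenoproteins 15 were tested and 0 called, with 5 positive and 10 negative and a median of -0.06 (-0.10 to 0.02 with 1 library left out), and Sepw1 was listed at 0. Sepp1, the plasma selenium carrier made by hepatocytes, measured 1432 and 946 CPM in the controls against 1472 and 1473 CPM under sleep restriction (log2 change 0.31, SE 0.22). Sephs2, which makes the selenium donor, had a log2 change of 0.13 (SE 0.21) and the deiodinase Dio1 had -0.14 (SE 0.21).

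Because metallothionein genes respond to glucocorticoids, 13 entries of corticosteroid-responsive genes were set beside them. Of these 10 were tested and 0 called, with 4 positive and 6 negative and a median of -0.08, which was -0.37 without sleep restriction 1 and 0.06 without sleep restriction 2. In edgeR 3 of the 10 had an unadjusted p under 0.05, beside 4.21% of all tested genes: Dusp1, a phosphatase of MAP kinases, with a log2 change of -1.45 (SE 0.28), Serpina6, the corticosteroid-binding globulin, with -0.92 (SE 0.26), and Tdo2, the tryptophan dioxygenase, with 0.46 (SE 0.20). The lowest value was that of the kinase gene Sgk1, at -1.55 (SE 0.84). Dusp1, Serpina6 and Sgk1 were chosen after their values were seen, and the smallest adjusted p of the list in edgeR was 0.319, for Dusp1. The list itself was chosen with earlier results of these data known, so its share under 0.05 is not independent of them. In 4 of the 10 both replicate 1 libraries lay above both replicate 2 libraries, beside 21.4% of all tested genes. Pck1, the gluconeogenic carboxykinase, was one of them, with 2320 and 2055 CPM in the controls against 3039 and 1144 CPM under sleep restriction, the same order of libraries as for Mt2A. Tat, the tyrosine aminotransferase, measured 464 and 900 CPM, then 861 and 753 CPM, and Tdo2 measured 754 and 880, then 1012 and 1239 CPM, so neither followed that order. The part of corticosteroids in the metallothionein values was not tested.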

How the data were processed

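The deposited table gives estimated counts per Ensembl gene with rn6 intervals. The authors deposited these expected counts as multiples of 0.1 with nearly equal column totals; the submitters' processing notes name CASAVA, STAR 2.4.1d and rn6, and the counting tool was not given in the sources used here. Words in the table's own name point to sense-strand counts averaged over repeated draws, which would lower counting noise in the drawn libraries, and the test does not model that.

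Rounded counts went into edgeR 4.0.16 under R 4.3.3 (TMM, filterByExpr with a minimum count of 10, robust quasi-likelihood, no covariates), with Benjamini-Hochberg adjustment over all genes kept. CPM and log2 CPM (prior count 2) use the rounded counts. The SE was calculated back from the log2 change and the F statistic, and 95% intervals use the fit's degrees of freedom. DESeq2 1.42.0 and limma 3.58.1 served as alternatives, with other scalings, filters, rounding, a replicate block and each library left out. The edgeR script was tested on simulated data. The replicate numbers are not said to pair animals, so they were not taken as paired. The correlation of deviations was 0.207, but with 2 pairs it cannot decide whether the libraries are paired.

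The genes described and the lists were chosen with earlier results of these data known. Named genes are every row of the 10 symbols, the 3 tested genes of highest mean CPM in each pathway list, the highest in each cell marker list, 10 fixed regulators and targets, and the 3 nearest patterns to each metallothionein row and to Gclc. Listed symbols with the value 0 that are named were chosen after their values were seen. Promoter sequences are RefSeq's of GRCr8, a different build from the counts.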

Additional observations from a re-analysis of the deposited data

How the results depend on the processing

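The number of metallothionein and antioxidant enzyme rows called was 0 under every alternative run, and all 11 rows were tested in each. Of 165 recalculated log2 changes 153 kept their sign. The genes called over the whole table, 1 in the main test, were 0 with limma-voom and without robust estimation, 5 without a gene filter and 5 with the replicate block, and 0 to 0 with 1 library left out. The cause was not tested. With limma-voom Mt2A had -0.22 and Mt1 on chromosome 17 had -0.15, and with the replicate block Mt2A had -0.0013. With 1 library left out Mt2A ran from -1.29 to 0.80, Mt1 on chromosome 17 from -1.11 to 0.71, Mt1 on chromosome 19 from -2.00 to 0.76, Sod1 from -0.29 to 0.0050, Sod2 from -0.063 to 0.15 and Gclc from -0.083 to 0.58. The metallothionein values were lowest without sleep restriction 1, and a group left with 1 library takes its spread from the other group. The medians of 5 of the 6 pathway lists changed sign when some single library was left out, all but that of the glutathione and thioredoxin list, which ran from -0.24 to -0.06. Counting precision is limited for Mt1 on chromosome 19, which had 4 counts in sleep restriction 2.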
